A study of Mus musculus with 6 samples.

Results

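Described here are the 6 mouse actin genes (Acta1, Acta2, Actc1, Actb, Actg1 and Actg2) and 3 genes of the smooth muscle contractile apparatus (Tagln, Cnn1 and Myh11), taken by symbol, which makes 9 of the 52550 mouse genes in the count tables. Acta2, the gene of smooth muscle alpha-actin, led to this choice because its level had been seen to be higher in hearts lacking the glucocorticoid receptor in cardiomyocytes. Its genotype difference is therefore a description and supports nothing. The question put to the data was whether Acta2 moves with the smooth muscle genes or with the other actins. Acta2 was 1.37-fold higher in the receptor-deficient hearts, and the estimates for the 7 other tested genes were all smaller, with none of them separating the groups.

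The study compared whole mouse hearts on postnatal day 7, with 3 biological replicates in each of 2 groups. The control group carries the genotype label ctrl. In the other group, GR-cKO, the glucocorticoid receptor gene Nr3c1 is deleted specifically in cardiomyocytes. The labels give neither the Cre line, the deleted exon nor the alleles of the controls, and the other cells of the heart are not targeted. RNA of homogenised hearts was sequenced with a 3′ mRNA kit (QuantSeq FWD), which reads the end of each polyadenylated transcript. A level therefore counts transcripts without regard to length, and is given in CPM, reads scaled to 1000000 reads of a library. In lysates of a whole organ, fewer cells of a type and less RNA per cell cannot be told apart.

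Actins are the monomers of the thin filaments of muscle and of the microfilaments of every cell. Striated muscle is built with the alpha-actins of heart (Actc1) and skeletal muscle (Acta1), vascular smooth muscle with Acta2, visceral smooth muscle with Actg2, and the cytoplasm of all cells with Actb and Actg1. Developing cardiomyocytes make several alpha-actins side by side, and Acta2 and Acta1 are known as genes of the immature heart muscle cell. Acta2 is also a marker of vascular smooth muscle cells and of activated fibroblasts, and transgelin (Tagln), calponin 1 (Cnn1) and smooth muscle myosin heavy chain (Myh11) are used with it to recognise smooth muscle. Serum response factor (SRF) binds a motif called the CArG box in the promoters of many of these genes, with myocardin or a related coactivator as its partner.

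The libraries held between 18135540 and 22999192 reads. Values of single hearts are given throughout in the order of replicates 1, 2 and 3, and means are given with their SD over n = 3 hearts. Nr3c1 was at 114, 131 and 99.8 CPM in controls and 57.6, 49.2 and 56.2 CPM with the deletion, and it was the single gene of 14860 to pass the threshold (0.00673% of those tested, edgeR adjusted p = 0.00101). Reads at its 3′ end do not measure the deletion itself, since the deleted exon is not named. GR-cKO replicate 3 stood apart in Gm42418, a gene that overlaps ribosomal RNA sequence and is named after its values were seen. It took 10.9% of gene reads there and 5.47 to 7.69% in the other 5 libraries.

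The start regions of Acta2, Acta1 and Cnn1 are shown because they set the gene that was higher beside 1 actin and 1 smooth muscle gene whose groups overlapped. Each run, from RefSeq (GRCm38.p6), is given as 250 bases before and 50 bases after a transcript start on the gene's strand. The runs lie at chr19:34255324-34255623 (minus strand), chr8:123894726-123895025 (minus strand) and chr9:22099003-22099302 (plus strand). The GENCODE positions of these genes begin at other bases than the starts set for these windows. Distances below are therefore counted within the windows and may not be distances to the true transcript start. Capitals mark CArG boxes with at most 1 C or G in the core of A and T.
Acta2: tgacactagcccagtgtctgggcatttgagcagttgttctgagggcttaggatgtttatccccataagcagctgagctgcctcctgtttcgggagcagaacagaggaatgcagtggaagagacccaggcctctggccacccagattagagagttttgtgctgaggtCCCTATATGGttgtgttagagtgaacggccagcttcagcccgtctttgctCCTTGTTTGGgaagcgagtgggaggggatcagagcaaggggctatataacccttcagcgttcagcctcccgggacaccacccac
Acta1: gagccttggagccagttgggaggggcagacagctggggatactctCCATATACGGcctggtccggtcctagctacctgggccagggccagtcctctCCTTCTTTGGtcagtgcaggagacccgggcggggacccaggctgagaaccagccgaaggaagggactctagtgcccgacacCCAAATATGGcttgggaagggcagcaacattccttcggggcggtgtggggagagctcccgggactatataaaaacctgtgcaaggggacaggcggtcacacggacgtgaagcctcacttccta
Cnn1: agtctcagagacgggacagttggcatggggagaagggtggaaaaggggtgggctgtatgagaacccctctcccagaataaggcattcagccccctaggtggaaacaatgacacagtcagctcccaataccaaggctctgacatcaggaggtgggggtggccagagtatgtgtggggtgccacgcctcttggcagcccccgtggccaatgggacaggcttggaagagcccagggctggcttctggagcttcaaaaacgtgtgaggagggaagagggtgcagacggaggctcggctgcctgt

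Acta2 held 2 CArG boxes of this relaxed form, 84 and 34 bases before the start set for its window. It held none of the strict form with A or T at every core position. Acta1 held 3, at 205, 154 and 73 bases, of which the last was strict, and Actc1 held 4 with 1 strict. Actg1 held 1 strict box 90 bases before the start set for its window, and the Cnn1 window held neither form. Of 32851 RefSeq windows of this length, 1.63% held a strict and 9.98% a relaxed box. The receptor's short motif AGAACA, on either strand, occurred in 2 places in the Acta2 window, in 1 place in that of Actg1 and nowhere in those of Acta1, Actc1 and Cnn1, against 19.0% of all windows. The paired form, AGAACA and TGTTCT with 3 bases between them, was in none of these 5 windows and in 0.00913% of all windows. Of the 9 genes, 5 matched an entry, and a match describes letters, not a binding site.

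The actin genes are close copies in their coding parts and differ at their 3′ ends, where these libraries read. Between pairs of the 6 actins, the coding bases of GENCODE transcripts were 81.5 to 88.6% identical, lowest for Acta2 with Actg1 and highest for Actb with Actg1. The last 300 bases of the Acta2 transcript shared no exact run of 16 bases or more with any other actin, and none longer than 19 bases with a transcript of any other gene. Actc1 and Actg2 shared a run of 31 bases in this stretch, so reads of the rarer Actg2 are the less certain. Actb shared a run of 69 bases with a transcript of Lrrc58, and its count may be split with that gene, which was not tested. The longest run that Acta1 shared with another gene, at 24 bases, was also with Lrrc58.

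In every library the levels ran in the order Actc1, Actb, Acta2 and Acta1. Actc1 (chromosome 2, 114047282 to 114053548, minus strand), the cardiac alpha-actin, averaged 6777 ± 198 CPM among controls and 7051 ± 386 among GR-cKO hearts. Actb (chromosome 5, 142903115 to 142906754, minus strand), the cytoplasmic beta-actin, averaged 3152 ± 147 and 3432 ± 294 CPM. Myh11, Tagln and Cnn1 followed far below, with group means of 7.51 to 11.7 CPM. Myh11 was the highest of these 3 in each library, although its lowest heart lay within the ranges of the others, and Tagln and Cnn1 changed places between libraries. Actg2 was lower still, and Actg1 had almost no reads. Acta2 reads were 58.9 to 154 times as many as those of Tagln, Cnn1 or Myh11 in the same library.

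**Figure D1:**
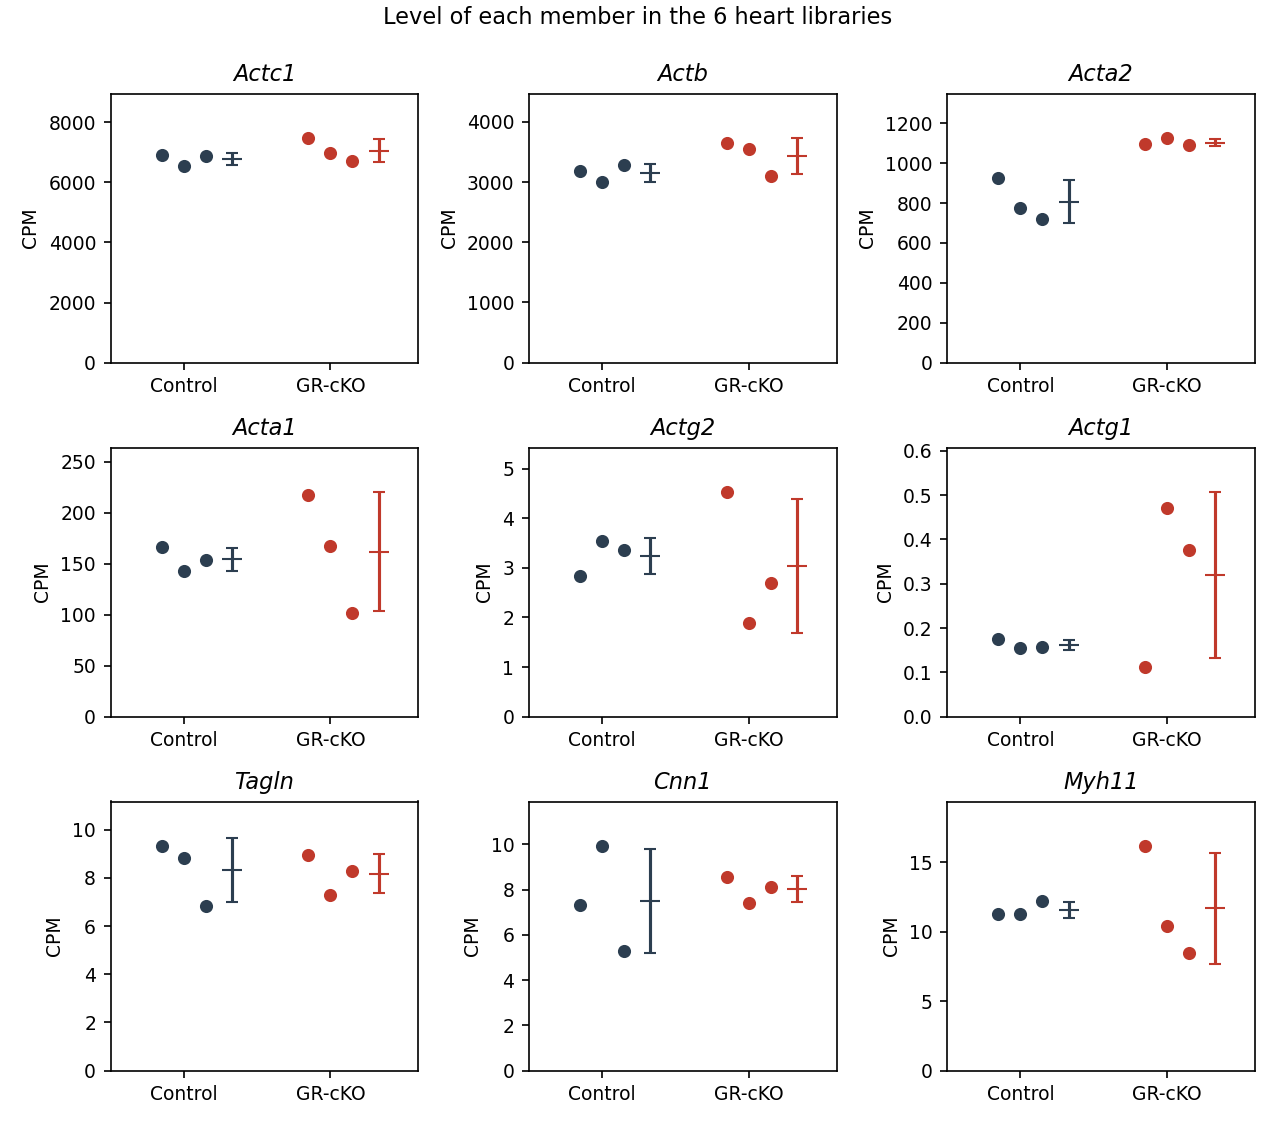
Level of the 9 genes in CPM (vertical axis, from 0) in 3 control and 3 GR-cKO hearts, with libraries as points in the order of replicates 1, 2 and 3 and the mean and SD as bars beside them. For Acta2 the GR-cKO points lie between 1089.5 and 1125 CPM, above all control points, and for the other 8 genes the groups overlap.

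Acta2 (ENSMUSG00000035783, chromosome 19, 34241090 to 34255590, minus strand) was the member with separate groups. Its counts were 21174, 15123 and 13720 among controls and 19632, 23848 and 20256 among GR-cKO hearts. Scaled, these were 926, 777 and 719.5 CPM against 1096, 1125 and 1089.5 CPM. The lowest GR-cKO heart was above the highest control heart, as for 4.7% of all tested genes. The group means of 807 ± 106 and 1103 ± 18.6 CPM gave a log2 fold change of 0.45 (SE 0.113, 95% interval 0.21 to 0.69). It was not called over all genes (edgeR adjusted p = 0.998). The controls had a coefficient of variation of 13.2% and the GR-cKO hearts one of 1.68%.

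The other alpha-actins of muscle did not separate the groups. Actc1 was at 6901, 6548 and 6881 CPM among controls and 7463, 6991 and 6698 CPM with the deletion. Its log2 fold change was 0.06, with a 95% interval of -0.15 to 0.26. Acta1 (chromosome 8, 123891769 to 123894751, minus strand), the skeletal alpha-actin that the immature heart also makes, was at 166, 143 and 153 CPM among controls and 217, 167 and 101 CPM with the deletion. GR-cKO replicates 1 and 2 were above and replicate 3 below all its controls, and the log2 fold change of 0.07 has an interval of -0.45 to 0.59. It was -0.20 without GR-cKO replicate 1 and 0.32 without GR-cKO replicate 3, the library with the high Gm42418 share, whose part in the Acta1 level was not tested.

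The cytoplasmic actins gave 1 abundant gene, whose count may be split with Lrrc58, and 1 that could not be read. Actb was at 3182, 2993 and 3282 CPM among controls and 3644, 3555 and 3097 CPM with the deletion, where replicate 3 lay inside the control range. Its log2 fold change was 0.12 (95% interval -0.10 to 0.34, edgeR adjusted p = 0.998), and 0.19 without GR-cKO replicate 3. Actg1 (chromosome 11, 120345690 to 120348542, minus strand), the cytoplasmic gamma-actin, had 4, 3 and 3 reads among controls and 2, 10 and 7 with the deletion, too few to be tested. Its last 300 transcript bases shared no run over 17 bases with a transcript of another gene, and its annotated pseudogene Actg-ps1 had at most 1 read in a library. A gene known to be active in most cells was thus nearly uncounted here, and the cause was not tested.

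Actg2 (chromosome 6, 83512905 to 83536265, minus strand), the gamma-actin of visceral smooth muscle, was rare in these hearts. It had 65, 69 and 64 reads among controls and 81, 40 and 50 with the deletion, or 1.89 to 4.52 CPM over the 6 libraries. GR-cKO replicate 1 was the highest and GR-cKO replicate 2 the lowest. The log2 fold change of -0.10 has a wide interval of -0.89 to 0.68, and it was 0.15 without GR-cKO replicate 2.

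The smooth muscle genes had overlapping groups. Tagln (chromosome 9, 45929619 to 45936058, minus strand) encodes transgelin, an actin-binding protein of smooth muscle. It was at 9.31, 8.84 and 6.82 CPM among controls and 8.93, 7.31 and 8.28 CPM with the deletion. All 3 GR-cKO hearts lay inside the control range, and the log2 fold change was -0.03 (95% interval -0.51 to 0.45, edgeR adjusted p = 1). Tagln had 130 to 213 reads a library, and its last 108 bases overlap the 3′ end of Pcsk7 on the opposite strand, a gene with 211 to 403 reads. The antisense gene Gm48529, which lies within Tagln, had 1 to 33 reads. If strand was not used in the counting, reads of these genes cannot be told apart, and the level of Tagln is uncertain.

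Cnn1 (chromosome 9, 22099216 to 22109630, plus strand) encodes calponin 1, an actin-binding regulator of smooth muscle contraction. It was at 7.30, 9.92 and 5.30 CPM among controls and 8.54, 7.40 and 8.12 CPM with the deletion. The GR-cKO hearts again lay inside the control range, with a log2 fold change of 0.10 (95% interval -0.44 to 0.63, edgeR adjusted p = 0.999). Myh11 (chromosome 16, 14194535 to 14291372, minus strand), the myosin motor of smooth muscle, was at 11.2, 11.3 and 12.2 CPM among controls and 16.1, 10.4 and 8.44 CPM with the deletion. Its GR-cKO hearts lay on both sides of a narrow control range, with a log2 fold change of 0.01 (95% interval -0.48 to 0.50, edgeR adjusted p = 1). The intervals of these 3 genes reach 0.45 or more, so they include a difference as large as that of Acta2. Acta1, with 1881 to 3887 reads a library, had an SE of 0.232, close to the 0.230 of Tagln and the 0.232 of Myh11. The directions of Tagln, Cnn1 and Myh11 flipped with single libraries left out, as given in the closing section.

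**Figure D2:**
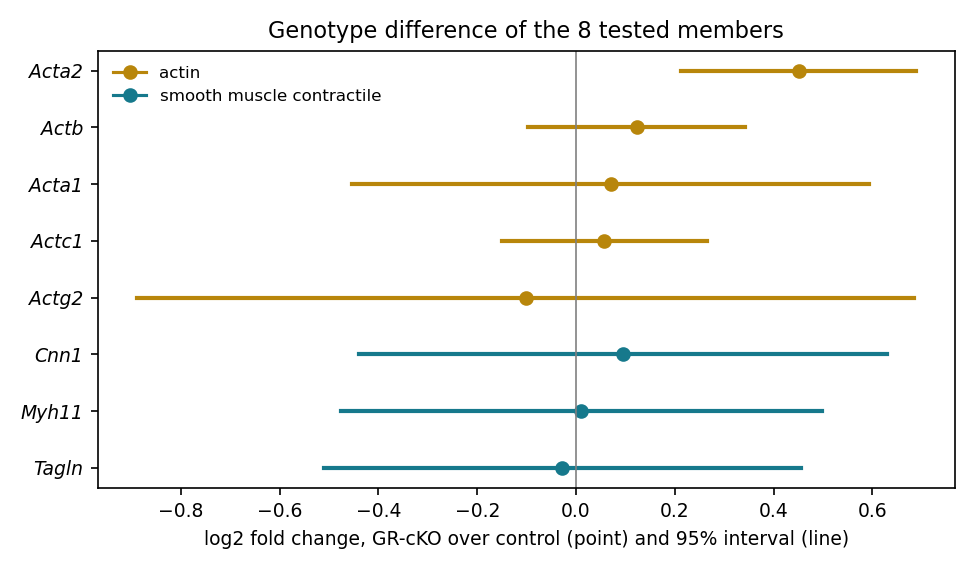
Log2 fold change of GR-cKO over control (horizontal axis, points) with its 95% interval (lines) for the 8 tested genes, actins and smooth muscle genes in separate colours. The interval of Acta2 runs from 0.21 to 0.69, and those of the other 7 genes include 0.

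Of the 8 genes tested, 0 passed the threshold over all genes, where 0.00673% of all genes did. Acta2 alone had an unadjusted p under 0.05, as did 4.2% of all genes, and it alone had groups apart in either direction, as did 9.97%. Nothing is read from these shares, since Acta2 was chosen for this difference. The median log2 fold change was 0.07 over the 5 tested actins, Acta2 among them, and 0.01 over the 3 smooth muscle genes, beside 0.01 over all genes. Without Acta2, the tested actins were at 0.07 (Acta1), 0.06 (Actc1), 0.12 (Actb) and -0.10 (Actg2). Besides Acta2, 5 of 7 tested members had a positive log2 fold change, where 51.3% of all genes did. Without GR-cKO replicate 1 this was 3 of 7, and without GR-cKO replicate 2 it was 7 of 7.

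Ratios of reads within a library do not depend on the scaling between libraries, so Acta2 was set against each other gene in this way. Acta2 had 0.134, 0.119 and 0.105 reads per read of Actc1 among controls, and 0.147, 0.161 and 0.163 with the deletion. All GR-cKO hearts were above all controls, by 0.40 on the log2 scale in the mean. Against Actb the ratios were 0.291, 0.260 and 0.219 among controls and 0.301, 0.316 and 0.352 with the deletion, again separate, with a mean difference of 0.34. Against Tagln they were 99.4, 87.9 and 105.5 among controls and 123, 154 and 131.5 with the deletion, also separate, with a mean difference of 0.48.

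For the remaining genes the ratios overlapped between groups. The mean differences on the log2 scale were 0.455 against Acta1, 0.645 against Actg2, 0.32 against Cnn1 and 0.50 against Myh11. Against Cnn1, control replicate 3 at 136 was above GR-cKO replicates 1 and 3 at 128 and 134. All 7 mean differences were positive. The choice of Acta2 favours this, and it also favours the separate groups against Actc1, Actb and Tagln. How many other genes would give separate ratios was not counted.

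**Figure D3:**
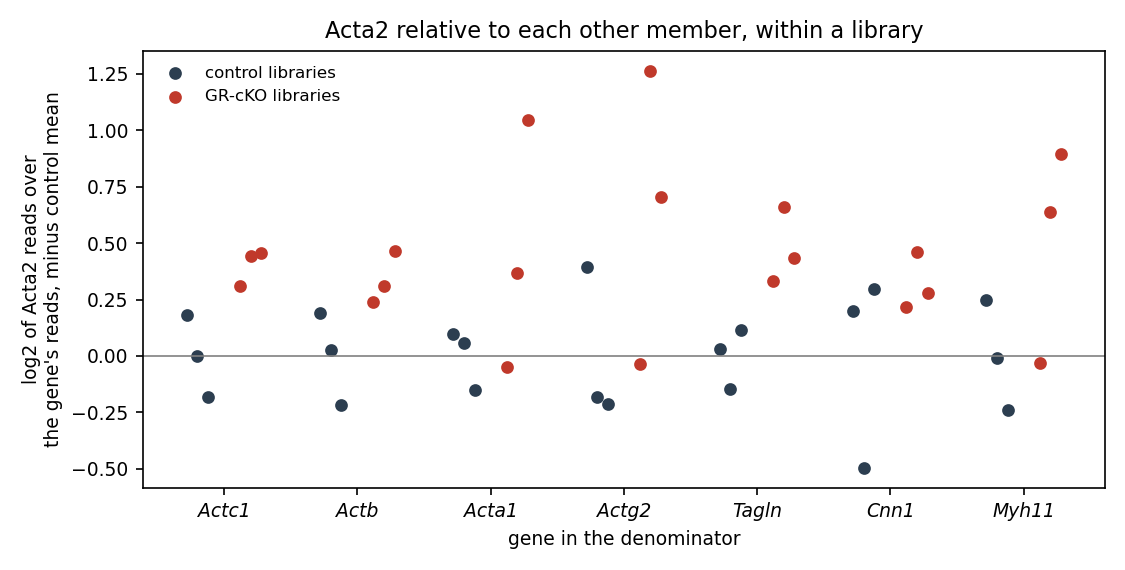
Log2 of Acta2 reads over the reads of each other gene in the same library, minus the control mean (vertical axis), with the gene of the denominator on the horizontal axis and single libraries as points. The GR-cKO points lie above all control points for Actc1, Actb and Tagln and overlap them for the other 4 genes.

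The make-up of the actin pool was described in the same way. All 6 actins together took 1.13, 1.06 and 1.11% of gene reads among controls and 1.25, 1.25 and 0.993% with the deletion, so the total overlapped. The share of Acta2 in actin reads was 8.28, 7.42 and 6.52% among controls and 8.82, 9.50 and 9.92% with the deletion. Every GR-cKO heart had a higher Acta2 share than every control, which the choice of Acta2 also favours. Actc1 made up 62.2 ± 0.427% of actin reads among controls and 60.02 ± 0.956% with the deletion, lower in every GR-cKO heart, and such shares must balance. Among reads of Actc1, Acta1 and Acta2 alone, Acta2 held 10.4 ± 1.15% and 13.3 ± 0.704%. The shares of Actb, at 28.9 ± 0.695 and 29.2 ± 0.932%, and of Acta1, at 1.41 ± 0.0618 and 1.36 ± 0.415%, overlapped.

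To compare patterns over single hearts, each gene's log2 CPM was centred on its mean over the 6 libraries, and the root mean square distance to Acta2 was taken. A gene with no variation at all would be 0.254 from Acta2 on this log2 scale. Actb (0.217) and Actc1 (0.231) were nearer than that, and 7.81 and 11.1% of all tested genes were nearer to Acta2 than they were. Tagln (0.268), Cnn1 (0.303), Myh11 (0.395), Acta1 (0.399) and Actg2 (0.520) were farther away than a flat gene, as were most tested genes. Shares of tested genes nearer to Acta2 than these 5 were 23, 35.7, 62, 62.6 and 78.3%, in that order. The distance includes the genotype difference for which Acta2 was chosen, which favours genes with a positive log2 fold change. The part of counting error in these distances was not tested.

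With the genotype difference taken out by centring within each group, a flat gene was 0.109 from Acta2. All 7 other tested members were farther than that, from 0.114 for Actc1 and 0.122 for Tagln to 0.412 for Actg2. Most tested genes were farther too, since 8.13% were nearer to Acta2 than Actc1 was. That share was 10.8% for Tagln, 15.7% for Actb, 57.4% for Cnn1, 66.9% for Myh11, 70.1% for Acta1 and 79.3% for Actg2. Among GR-cKO hearts, Acta1 and Myh11 were highest in replicate 1 and lowest in replicate 3, while Acta2 was nearly level. Acta2 and Tagln were both highest in replicate 1 and lowest in replicate 3 of the controls, but in GR-cKO replicate 2 Acta2 was at its highest and Tagln at its lowest for that group.

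**Figure D4:**
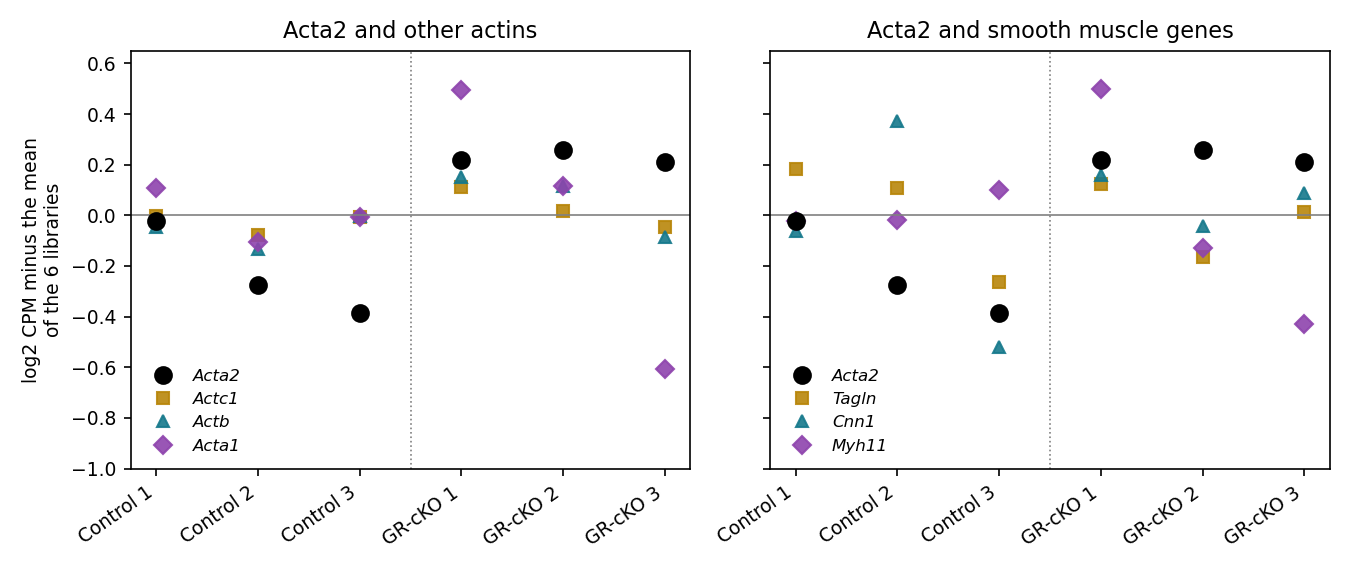
Log2 CPM of each gene minus its mean over the 6 libraries (vertical axis) in each library (horizontal axis), for Acta2 with 3 other actins (left) and with 3 smooth muscle genes (right), the dotted line parting the groups. Acta2 runs from -0.39 to -0.02 in controls and from 0.21 to 0.26 in GR-cKO hearts, while from GR-cKO replicate 1 to replicate 3 Acta1 goes from 0.49 to -0.61 and Myh11 from 0.50 to -0.43.

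Nearest genes were sought among the 6113 other tested genes with a mean of at least 20 CPM, and those found were outside both families. Tagln, Cnn1, Myh11, Actg2 and Actg1 lay below that level and could not be among them. Of the 6113 genes, 30.4% were nearer to Acta2 than a flat gene. The 5 nearest were Cstf3 (distance 0.0880), which encodes a subunit of the mRNA cleavage stimulation factor, Mier3 (0.102), Med4 (0.102), a subunit of the Mediator complex, Swt1 (0.114) and Slc4a2 (0.116), an anion exchanger. Cstf3 averaged 22.1 ± 2.55 CPM among controls and 27.7 ± 1.80 with the deletion. These genes were chosen by their likeness over 6 libraries, and nothing about function is read from it.

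Other genes of smooth muscle gave a median near that of all genes. All 20 on the list were tested, 9 with a positive and 11 with a negative log2 fold change, and the median was -0.01 beside 0.01 over all genes. At an unadjusted p under 0.05, 1 was higher and 0 lower, against 2.07 and 2.13% of all genes, and 0 passed over all genes. Csrp1, a LIM protein of smooth muscle, averaged 209 ± 15.2 CPM among controls and 257 ± 56.1 with the deletion, with overlapping groups. Myl9, a regulatory light chain of smooth muscle and non-muscle myosin, averaged 208 ± 13.0 and 248 ± 35.7 CPM, also overlapping. Kcnmb1, a subunit of a potassium channel of smooth muscle, and Gucy1a1, a subunit of soluble guanylate cyclase, had every GR-cKO heart below every control, as did 5.27% of all genes, and 0 of the 20 had every one above, as did 4.7%. Their means were 1.62 and 0.880 CPM for Kcnmb1 and 77.6 and 65.9 CPM for Gucy1a1, and both were named after their values were seen. Des and Pln, the most abundant genes of the list, are also cardiomyocyte genes.

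Markers of other cells that can make Acta2 had list medians below 0. Of 12 pericyte markers, 11 lay below and 1 above a log2 fold change of 0, where 51.3% of all genes lay above 0. By unadjusted edgeR p under 0.05, 0 of the 12 were higher and 0 lower, against 2.07 and 2.13% of all genes. The median of the pericyte list was -0.07, and its summed level was 1110 to 1172 CPM among controls and 1021 to 1257 with the deletion. The most abundant were Rgs5, at 531 ± 40.6 and 533 ± 93.1 CPM, and Abcc9, and those of smallest p were Notch3 and Higd1b, all with overlapping groups. Of 16 fibroblast and myofibroblast markers, 14 lay below and 2 above 0, again beside 51.3% of all genes above 0. The median of this list was -0.10, and its sums were 4570 to 5467 and 4390 to 4464 CPM. Col3a1, a fibrillar collagen, averaged 1157 ± 77.8 and 946 ± 106 CPM, and Postn, a matrix protein of activated fibroblasts, 401 ± 50.8 and 333 ± 50.9 CPM, each with every GR-cKO heart below every control. Tcf21, a transcription factor of cardiac fibroblasts named after its values were seen, separated the other way, at 18.8, 18.9 and 20.98 CPM among controls and 23.1, 23.4 and 22.8 CPM with the deletion. The list thus had 1 gene with all GR-cKO hearts higher and 2 with all lower, beside 4.7 and 5.27% of all genes. Col1a1, the next most abundant, overlapped. None of these genes passed the test over all genes.

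Genes of the wall of great vessels, which can stay attached to a dissected heart, had 5 of 6 negative log2 fold changes and a median of -0.09. Of all genes, 51.3% had a positive one. Sums of the great vessel list were 1372 to 2027 CPM among controls and 1329 to 1530 with the deletion. Eln, the elastin gene, averaged 825 ± 325 and 645 ± 186 CPM. Control replicate 2, the control with the highest Cnn1, also had the highest Eln, at 1197 CPM. Of the other smooth muscle genes, Lmod1, Itga8 and Mrvi1 were also highest among controls in that replicate. Mylk, Synpo2 and Pgm5 were instead highest in control replicate 1, and these genes were named after their values were seen. Among controls, Tagln was highest in replicate 1, at 9.31 CPM, and Myh11 in replicate 3, at 12.2 CPM. Bgn, Mgp and Fbln2 overlapped between groups.

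Cardiomyocyte markers were abundant in every library, and 7 of 8 had a log2 fold change above 0, beside 51.3% of all genes. The median of the 8 was 0.13, with overlapping sums of 35680 to 39270 and 35660 to 46070 CPM. Myh6 and Tnnt2 were the most abundant and Mybpc3 and Ttn those of smallest p, all overlapping. Endothelial markers had a median of -0.06. Vwf, the gene of von Willebrand factor, averaged 30.4 ± 1.68 and 21.2 ± 3.06 CPM with every GR-cKO heart lower, Egfl7 had every one higher, which makes 1 of 8 genes each way beside 5.27 and 4.7% of all genes, and Pecam1 and Kdr overlapped. Of 8 epicardial and mesothelial markers all lay above 0, beside 51.3% of all genes. The median of this list was 0.19, with overlapping sums of 40.6 to 52.2 and 39.05 to 68.4 CPM. Upk1b, Lrrn4, Tbx18 and Wt1 overlapped. Of 10 skeletal muscle markers 5 had enough reads for the test, with a median of 0.09, sums of all 10 at 28.4 to 35.04 and 25.2 to 36.7 CPM, and overlap for Myl1 and Tnni2. The part of any of these cells in the Acta2 difference was not tested.

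Genes of the immature or stressed cardiomyocyte, the other setting in which Acta2 is known, were mixed. Of 14 tested, 6 lay above and 8 below 0, at a median of -0.03, and 0 passed over all genes. By unadjusted edgeR p under 0.05, 2 were higher and 0 lower, against 2.07 and 2.13% of all genes. Tnni1, the slow skeletal troponin I of the fetal heart, was at 1145, 1133 and 1127 CPM among controls and 1281, 1233 and 1708 CPM with the deletion, with separate groups and its highest value in the library with the high Gm42418 share. Myh7b, a further myosin heavy chain gene, averaged 18.4 ± 3.37 and 24.8 ± 2.40 CPM, also separate. Of the 14 genes, 3 had every GR-cKO heart higher and 1 had every one lower, beside 4.7 and 5.27% of all genes. Ccnd2, a cyclin, was the other higher gene and Fhl1, a LIM protein, the lower one, both named after their values were seen.

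Srf, its coactivators and relatives of calponin and transgelin were listed together with other genes. The others, given to define the list, were Vcl, Flna, Tpm1, Tpm4, Fhl2, Zyx, Egr1, Fos, Ccn1 and Ccn2. The whole list had 14 of 17 positive log2 fold changes, beside 51.3% of all genes, and a median of 0.06, beside 0.01. None passed the edgeR test over all genes, 0 had an unadjusted p under 0.05, beside 4.2% of all genes, and 0 had separate groups, beside 9.97%. Srf itself was at 239, 192 and 182 CPM among controls and 188, 347 and 271 CPM with the deletion, with GR-cKO replicate 1 inside the control range. Tpm1, a tropomyosin gene, averaged 9028 ± 730 CPM among controls and had a log2 fold change of 0.21 (95% interval -0.03 to 0.44). Myocd, the gene of myocardin, named after its values were seen, averaged 50.4 ± 2.59 and 51.3 ± 4.80 CPM. Log2 fold changes of the coactivators were 0.03 for Myocd, -0.09 for Mrtfa and 2e-04 for Mrtfb, also named after their values were seen.

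Proteins that hold actin monomers or that cap, sever and branch filaments were balanced, with 11 of 22 genes positive, 11 negative and a median of 0.00. Dstn, the gene of destrin, which depolymerises actin filaments, was at 356, 283 and 362 CPM among controls and 426, 371 and 434 CPM with the deletion. Its groups were separate, with a log2 fold change of 0.30 (95% interval 0.04 to 0.55, edgeR adjusted p = 0.998). Arpc3, a subunit of the branching complex Arp2/3, averaged 105 ± 24.6 and 125 ± 10.3 CPM, with overlapping groups. Arpc2, another subunit of that complex, named after its values were seen, was at 299, 319 and 315 CPM among controls and 334, 324 and 327 CPM with the deletion. With Dstn it made 2 of 22 genes with every GR-cKO heart higher, beside 4.7% of all genes, and 0 had every one lower, beside 5.27%.

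**Figure D5:**
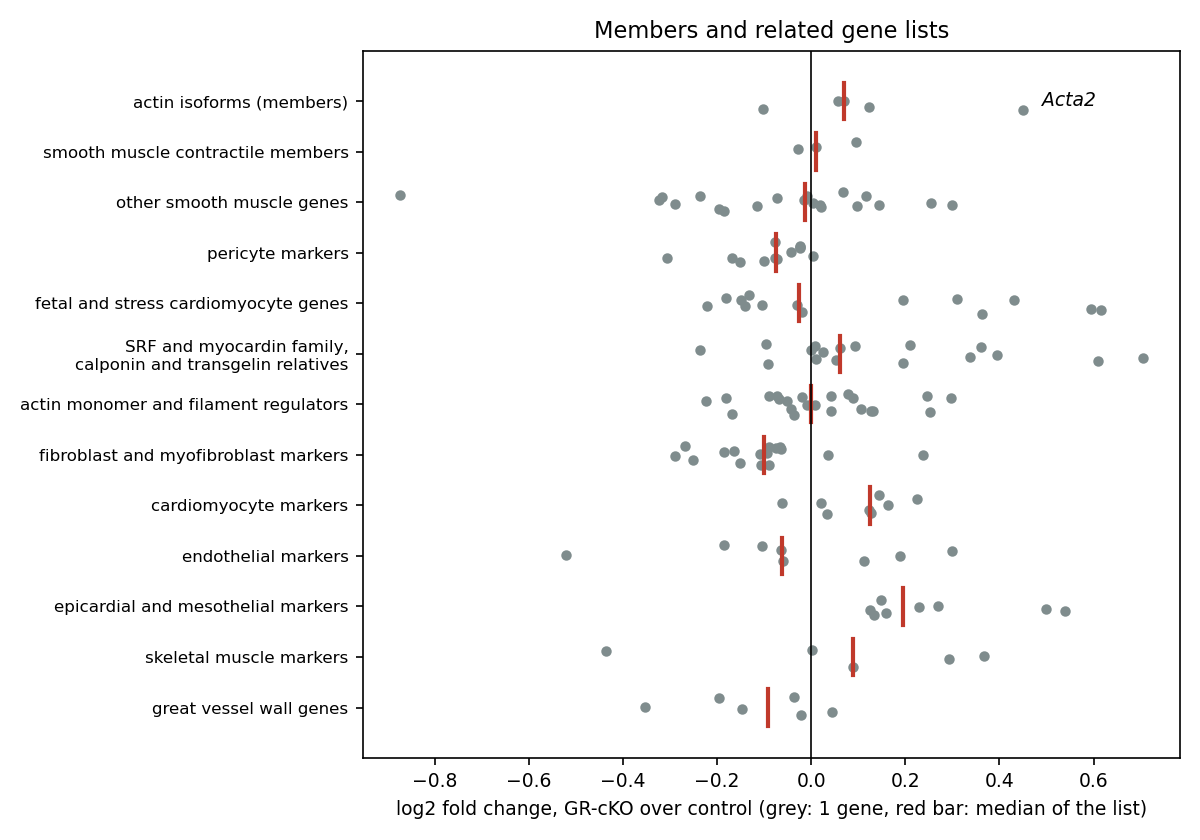
Log2 fold change of GR-cKO over control (horizontal axis) of the tested genes in each list (vertical axis), with genes as grey points and list medians as red bars. Acta2, at 0.45, lies at the right end of the actins, whose median is 0.07, and the genes of the smooth muscle lists lie on both sides of 0.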

How the data were processed

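Each deposited file holds whole-number read counts per Ensembl mouse gene for 1 library, not normalized. Per the submitters' processing notes, the tools included cutadapt 1.16, STAR 2.5.4a and featureCounts 1.6.2, with the GRCm38 build. Which annotation release, strand setting and read filters were used is not given in the sources used here. Symbols and positions came from GENCODE M21 (GRCm38). The 99 spike-in rows took 1.63 to 2.01% of reads and entered neither library sizes nor tests.

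From these counts, genes were filtered with filterByExpr and scaled by the trimmed mean of M-values (TMM) in edgeR 4.0.16. Genotype was tested with edgeR's quasi-likelihood F test. Benjamini-Hochberg adjustment covered all 14860 tested genes, with a threshold of 0.05. Every interval and adjusted p-value without another tool's name is from this fit. Distances between patterns used log2 CPM with a prior count of 2.

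The members and lists were chosen with earlier results of these data known. Named genes are the 9 members, Nr3c1, the 2 genes of smallest p in each other list, the 2 of highest level in lists that check tissue or other cell types, and the 5 genes nearest to Acta2 in pattern. A few others are marked in the text as named after their values were seen. In all, 13 alternative settings were tried with edgeR, DESeq2 1.42.0 and limma 3.58.1. Precision is that of 3 hearts a group. The sources used here name no molecular identifiers, so reads are not taken as independent molecules.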

Additional observations from a re-analysis of the deposited data

How the results depend on the processing

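Acta2 was higher under all 13 alternatives and called under none. Its log2 fold change ran from 0.37 to 0.56 with each library left out in turn and from 0.42 (library totals) to 0.51 (spike-in scaling) otherwise, and its adjusted p from 0.103 to 1. No other tested member was called under any of them, but 5 turned direction. With single libraries left out, Acta1 ran from -0.20 (without GR-cKO replicate 1) to 0.32, Actg2 from -0.50 to 0.15 (without GR-cKO replicate 2), and Cnn1 from -0.10 (without control replicate 3) to 0.35. Tagln ran from -0.15 to 0.060, positive when control replicate 1, control replicate 2 or GR-cKO replicate 2 was left out, and was at 0.023 with spike-in scaling. Myh11 ran from -0.29 to 0.20, negative when control replicate 1, control replicate 2 or GR-cKO replicate 1 was left out. It was at -0.015 with library totals, -0.047 with limma voom and -0.034 with the replicate block. The cause of these turns was not tested. The number of genes called was 1 in the reported fit, 2 with library totals, 10 with no filter on low counts and 3 with DESeq2, which was run on the unfiltered genes with its own independent filtering, so that tool and filter changed together. With single libraries left out it was 1 to 2, reaching 2 without GR-cKO replicate 2 or 3, and with the replicate number as a block it was 1. The labels do not say that replicate numbers pair hearts, and same-numbered libraries correlated by 0.274, 0.143 and 0.046 in their deviations from group means. In 5 of 6 libraries the best match had the same number. The median of the other smooth muscle genes was -0.09 and -0.08 without GR-cKO replicates 1 and 3. Following that median and the number of positive members across settings was chosen after seeing the data. Tagln, Cnn1, Myh11 and Actg2 had 40 to 289 reads a library, and how much of their spread is counting error was not tested. Actg1 was not measurable.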
